A study of Drosophila melanogaster with 12 samples.

Results

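The genes described here are 7 of the cell death machinery of Drosophila melanogaster, chosen by name from the 15446 genes of a count table of ovary RNA: head involution defective (hid, listed in the table as W), reaper (rpr), sickle (skl), Diap1 (th), the caspases Drice (Ice) and Dcp-1, and the transcription factor gene Xrp1. Of these, 6 were among the 8638 genes with enough counts to be tested, and skl was not. The 12 RNA-seq libraries fall into 6 groups of 2. They come from ovaries with a knockdown of nxf2 limited to the germline and attp2 wild-type ovaries; nxf2 -/- mutant ovaries and W1118 wild-type ovaries; and nxf2 -/- and nxf2 +/- ovaries that both carry tethered panx FL10B. The mutants were made with CRISPR/Cas9. All flies were fed yeast, kept at 25°C and listed with an age of 3-5, whose unit the labels leave out. The labels do not name the driver or hairpin of the knockdown, what FL10B is, the site of the nxf2 lesion, how many flies a library pools, or which wild-type stock is the control of which nxf2 group. The names alone were used to pair attp2 with the knockdown and W1118 with the mutant.

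In flies, apoptosis is held in check by Diap1, a ubiquitin ligase that binds the initiator caspase Dronc and the effector caspases Drice and Dcp-1. Hid, Reaper, Grim and Sickle each carry a short motif at the N terminus that binds Diap1 and frees the caspases, and the transcription of these antagonists is a main point at which death signals enter. Xrp1 is a basic leucine zipper transcription factor induced by DNA damage, by ribosomal protein loss and by other stress, and acts in the removal of cells in cell competition. In the ovary, germline cysts die in mid-oogenesis under poor nutrition in a process that needs Dcp-1, while the nurse cells of late egg chambers are removed largely by other means.

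The libraries held 3811630 to 11260925 counts, so 3 counts in a library stand for 0.275 to 0.772 CPM, the unit used here for counts scaled to a common library size. The nxf2 transcript averaged 18.1 ± 1.25 CPM in knockdown ovaries and 42.6 ± 9.25 CPM in attp2 ovaries, and 31.7 ± 2.67 CPM in mutant ovaries and 69.1 ± 0.510 CPM in W1118 ovaries (SD, n = 2 each). It averaged 30.2 ± 0.103 CPM in mutant ovaries with Panx FL10B and 35.2 ± 0.816 CPM in heterozygous ovaries with Panx FL10B, a log2 difference of -0.22 with an adjusted p of 0.334, so the nxf2 level does not check the labels of this pair. In the Ensembl annotation of a later assembly than that of the counts, exons of nxf2 overlap a TART-A transposon over 630 bases on the same strand. They also overlap mbf1 over 13 bases on the opposite strand. Whether reads of TART-A entered the nxf2 counts was not tested. Replicates were not equally close: the chi-square of their counts per degree of freedom, which grows with depth, ran from 1.59 in W1118 to 35.7 in attp2, and Pearson's r of log2 CPM across genes from 0.984 in attp2 to 0.994 in the mutant with Panx FL10B. Nothing in the labels says that the libraries of a group came from separate animals or cultures, so p-values measure the spread between these libraries, which may be technical.

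In mutant ovaries with Panx FL10B, hid, rpr and Xrp1 were each higher than in heterozygous ovaries with Panx FL10B, 2.51-fold, 5.72-fold and 2.84-fold, and Diap1 and both effector caspases did not pass the test. Here and throughout, called means an adjusted p under 0.05 by edgeR's quasi-likelihood test, with Benjamini-Hochberg adjustment over all 8638 genes. That is 3 of the 6 tested members, all higher, where 19.5% of all tested genes were called in either direction and 9.27% were called higher. The median log2 difference of the 6 members was 0.76 and that of all tested genes -0.01. In bulk RNA, a change in the number of cells of a type and a change in RNA per cell cannot be told apart.

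The same 3 genes were higher in nxf2 mutant ovaries without Panx FL10B than in W1118 ovaries, hid 2.05-fold, rpr 6.31-fold and Xrp1 1.54-fold. Among all tested genes, 26.8% were called in this comparison and 15% were called higher. The members had a median log2 difference of 0.50, against 0.04 over all tested genes. With attp2 as the control of the mutant, hid was still called higher, at 0.90 on the log2 scale (adjusted p = 0.00578). There rpr stood at -0.68 (adjusted p = 0.0519) and Xrp1 at 0.01 (adjusted p = 0.918), neither of them called. That comparison called 4849 of 8638 tested genes.

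Germline knockdown gave another set of calls. Against attp2 ovaries, hid was 1.80-fold higher, while rpr was 2.94-fold lower and Diap1 1.34-fold lower, and Xrp1 was not called. These 3 calls stand beside 15.7% of all tested genes called, 8% higher and 7.7% lower. The median log2 difference of the members was -0.09 and that of all tested genes -0.03. None of the 3 calls was made when the 4 libraries were fitted alone, with adjusted p-values of 0.109 for hid, 0.0699 for rpr and 0.297 for Diap1 in edgeR.

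**Figure D1:**
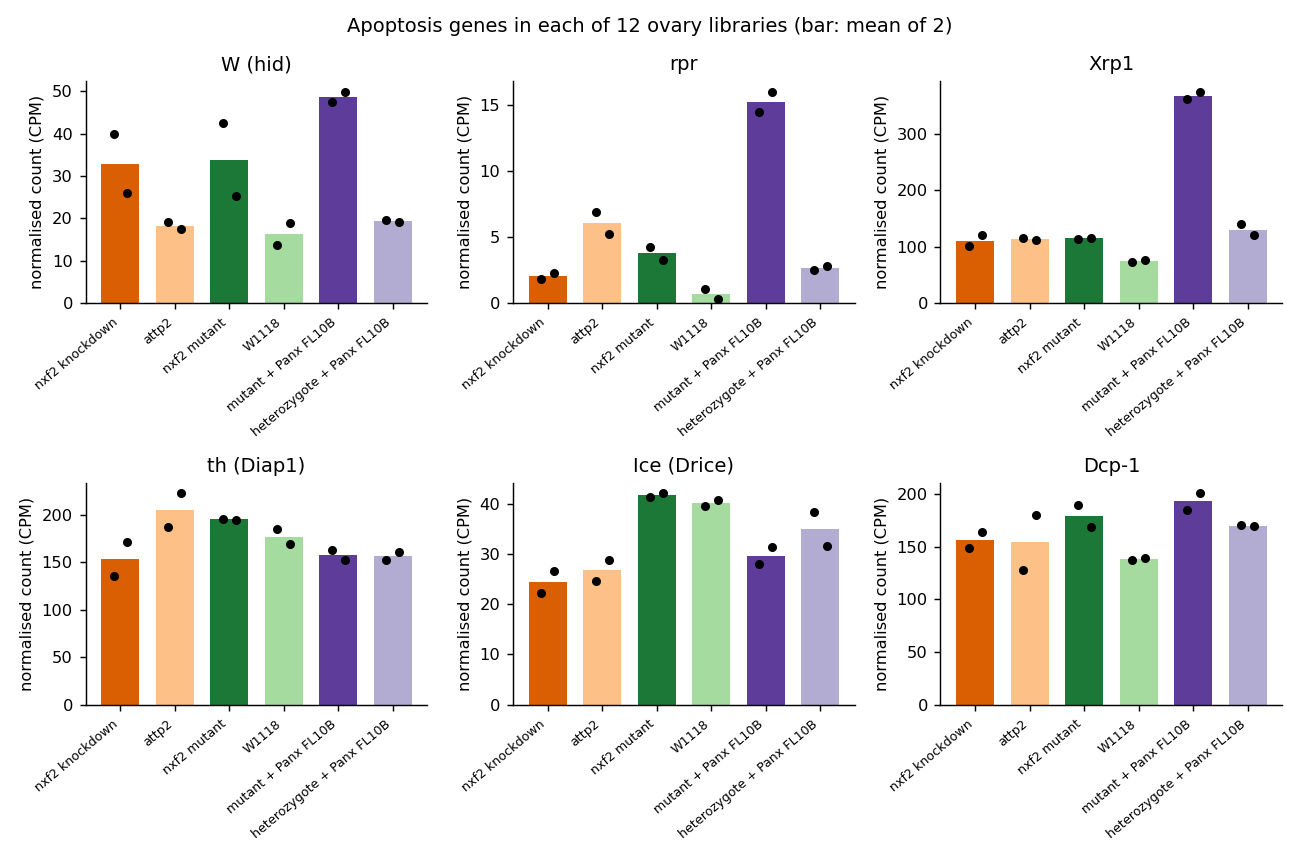
Each panel gives the CPM of 1 gene (hid, rpr, Xrp1, Diap1, Drice and Dcp-1) in the 12 ovary libraries, with 1 point per library and a bar at the mean of each group. The 2 libraries of the mutant with Panx FL10B have the highest values of hid, rpr and Xrp1, at 47.6 and 50.0 CPM for hid, 14.4 and 16.0 CPM for rpr, and 362 and 376 CPM for Xrp1.

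Among the Diap1 antagonists, hid was the most counted. It had 47.6 and 50.0 CPM in mutant ovaries with Panx FL10B, against 19.7 and 19.1 CPM in heterozygous ovaries with Panx FL10B. It had 42.6 and 25.2 CPM in mutant ovaries, against 13.6 and 18.8 CPM in W1118 ovaries. In knockdown ovaries it had 39.8 and 26.0 CPM, against 19.1 and 17.4 CPM in attp2 ovaries. Every library with nxf2 knocked down or mutated on both chromosomes thus lay above every wild-type and heterozygous library. The lowest of the first kind had 25.2 CPM and the highest of the second 19.7 CPM. How many of all tested genes separate the libraries in this way was not counted, here or for the pairs without overlap below. With 2 libraries per group, uncalled values can also lack overlap, as for Diap1 in the mutant against W1118.

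The log2 difference of hid was 1.33 (SE 0.25, adjusted p = 0.00220) between mutant and heterozygote with Panx FL10B, 1.04 (SE 0.26, adjusted p = 0.0112) between mutant and W1118, and 0.85 (SE 0.24, adjusted p = 0.0310) between knockdown and attp2. The first call was made whichever library was left out. The second was lost without mutant replicate 1, where the log2 difference was 0.60 and the adjusted p 0.137, or without W1118 replicate 1, where the adjusted p was 0.0960. That of the knockdown was lost without knockdown replicate 1 (log2 difference 0.50, adjusted p = 0.277), without attp2 replicate 1 (adjusted p = 0.0717) and without attp2 replicate 2 (adjusted p = 0.162). With W1118 in place of attp2 as its control, the knockdown still had more hid, by 0.99 on the log2 scale with an adjusted p of 0.00624.

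By mean level, hid ran from the mutant with Panx FL10B (48.8 CPM) through the mutant (33.9 CPM) and the knockdown (32.9 CPM) to the heterozygote with Panx FL10B (19.4 CPM), attp2 (18.3 CPM) and W1118 (16.2 CPM). Of the 5 steps between neighbours in this order, the test called the one between knockdown and heterozygote with Panx FL10B, at an adjusted p of 0.0216 in a comparison that called 50% of all tested genes. The step between the mutant with and without Panx FL10B had a log2 difference of 0.52 (SE 0.23) and an adjusted p of 0.0920. It was 0.95 and called without mutant replicate 1 (adjusted p = 0.0133), and 0.19 without mutant replicate 2 (adjusted p = 0.538).

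The gene rpr, whose product is a small antagonist of Diap1, had few counts and moved over a wider range. Its exons span 901 bases, against 4018 for hid, so their counts do not compare the levels of these genes. It had 14.4 and 16.0 CPM in mutant ovaries with Panx FL10B (115 and 111 counts), against 2.46 and 2.80 CPM in heterozygous ovaries with Panx FL10B (13 and 19 counts). Mutant ovaries had 4.25 and 3.25 CPM (38 and 25 counts), against 1.03 and 0.306 CPM in W1118 ovaries (4 and 2 counts). Knockdown ovaries had 1.84 and 2.24 CPM (16 and 19 counts), against 6.86 and 5.22 CPM in attp2 ovaries (74 and 57 counts). No pair of groups overlapped in these 3 comparisons, and the direction in the knockdown was the opposite of the other two.

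The log2 difference of rpr was 2.52 (SE 0.30, adjusted p = 5.9e-05) between mutant and heterozygote with Panx FL10B, and it was called whichever library was left out. Between mutant and W1118 it was 2.66 (SE 0.47, adjusted p = 0.00141). That value rests on 63 counts in the mutant and 6 in W1118, a ratio of summed counts scaled by library size of 6.57 with a 95% interval of 2.86 to 18.6 for counting error only. Without W1118 replicate 2 the log2 difference was 1.85 and the adjusted p 0.0530. Between knockdown and attp2 the log2 difference was -1.56 (SE 0.30, adjusted p = 0.00516).

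The direction of rpr depended on which wild-type stock was taken as the control. In W1118 ovaries rpr averaged 0.668 ± 0.511 CPM, against 6.04 ± 1.16 CPM in attp2 ovaries (SD, n = 2 each), a log2 difference of -3.34 (SE 0.44, adjusted p = 2.56e-05). Against W1118, the knockdown had more rpr, by 1.78 on the log2 scale with an adjusted p of 0.0106. Against attp2, the mutant had a log2 difference of -0.68 and an adjusted p of 0.0519. The order of mean levels placed attp2 second, between the mutant with Panx FL10B and the mutant. The steps called were those from the mutant with Panx FL10B to attp2 (adjusted p = 0.000400, 61.7% of all tested genes called) and from the knockdown to W1118 (51.9% called).

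The other antagonists were close to absent from the counts. The gene skl had 2 counts in all, 1 in attp2 replicate 2 and 1 in mutant replicate 1, and grim, which was not among the 7 genes, had 1 count in attp2 replicate 1. Neither was tested. In every library both were under the 3 counts that a count of 0 allows, so no difference between groups could be detected at this depth.

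The 4 antagonist genes lie along chromosome arm 3L in the order hid, grim, rpr, skl in the RefSeq annotation of a later assembly than dm3, the assembly of the counts, so only their order is used here. The stretch from hid to skl holds 17 annotated genes, of which 8 code for protein. Over all 12 libraries hid had 2673 counts and rpr 493. Of the other protein-coding genes between them, CG7320 had 56 counts, CG13700 had 1, and CheA75a and CG5103 had none. CG7320 was not called in any of the 3 comparisons that involve nxf2, at adjusted p-values of 0.360 in the knockdown, 0.415 in the mutant and 0.562 in the mutant with Panx FL10B. No exon of hid, rpr, skl, Drice or Xrp1 overlapped an exon of another gene in the Ensembl annotation of that later assembly.

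Diap1, the inhibitor that these antagonists bind, varied less than hid, rpr or Xrp1, from 136 to 223 CPM over the 12 libraries. Its CPM were 163 and 152 in mutant ovaries with Panx FL10B, against 153 and 160.5 in heterozygous ovaries with Panx FL10B. Mutant ovaries had 195.2 and 195.0 CPM of Diap1, against 185 and 169 CPM in W1118 ovaries. Knockdown ovaries had 136 and 172 CPM, against 187 and 223 CPM in attp2 ovaries, where the groups did not overlap.

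Of these 3 comparisons, Diap1 was called in the knockdown alone, with a log2 difference of -0.42 (SE 0.12, adjusted p = 0.0312). The call was lost without knockdown replicate 1 (adjusted p = 0.227), without attp2 replicate 2 (adjusted p = 0.125) and with W1118 as the control, where the log2 difference was -0.20 and the adjusted p 0.175. In the mutant with Panx FL10B against the heterozygote its log2 difference was 0.01 (SE 0.12, adjusted p = 0.977), in the same pair in which hid and rpr were both called higher. No step between neighbours in the order of Diap1 levels was called. Between groups further apart, Diap1 was lower in the mutant with Panx FL10B than in attp2 (-0.38, adjusted p = 0.0130, 61.7% of all tested genes called). It was also lower in the heterozygote with Panx FL10B than in attp2 (-0.39, adjusted p = 0.0149) and in the knockdown than in the mutant (-0.35, adjusted p = 0.0236). The exons of Diap1 overlap those of an antisense RNA over 347 bases, and no source used here states whether the counting took strand into account.

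In the fit of all 12 libraries, the effector caspases were not called in any of the 3 nxf2 comparisons. Drice, the main effector caspase of most fly tissues, had 28.0 and 31.4 CPM in mutant ovaries with Panx FL10B, against 38.4 and 31.7 CPM in heterozygous ovaries with Panx FL10B. It had 41.4 and 42.1 CPM in mutant ovaries, against 39.6 and 40.7 CPM in W1118 ovaries. Knockdown ovaries had 22.2 and 26.6 CPM, against 24.6 and 28.8 CPM in attp2 ovaries. Drice was higher in W1118 than in attp2 ovaries by 0.59 on the log2 scale (SE 0.14, adjusted p = 0.00323). With the other stock as the control Drice was called, at -0.72 in the knockdown against W1118 (adjusted p = 0.00102) and at 0.64 in the mutant against attp2 (adjusted p = 0.00133).

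Dcp-1 had 185 and 201 CPM in mutant ovaries with Panx FL10B, against 171 and 169.6 CPM in heterozygous ovaries with Panx FL10B. Mutant ovaries had 190.2 and 169 CPM, against 138 and 139.7 CPM in W1118 ovaries, and knockdown ovaries had 149 and 164 CPM, against 128 and 180.1 CPM in attp2 ovaries. Its largest log2 difference of the 3 was 0.37 in the mutant against W1118 (SE 0.14), which missed the threshold at an adjusted p of 0.0571. The log2 difference was 0.18 (adjusted p = 0.378) with Panx FL10B and 0.02 (adjusted p = 0.931) in the knockdown. When only the compared groups were fitted, Dcp-1 was called higher in the mutant against W1118 (log2 difference 0.36, adjusted p = 0.00563) and in the mutant against the heterozygote with Panx FL10B (0.19, adjusted p = 0.00462). Exons of Dcp-1 and of the zinc finger gene pita overlap over 239 bases on opposite strands.

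**Figure D2:**
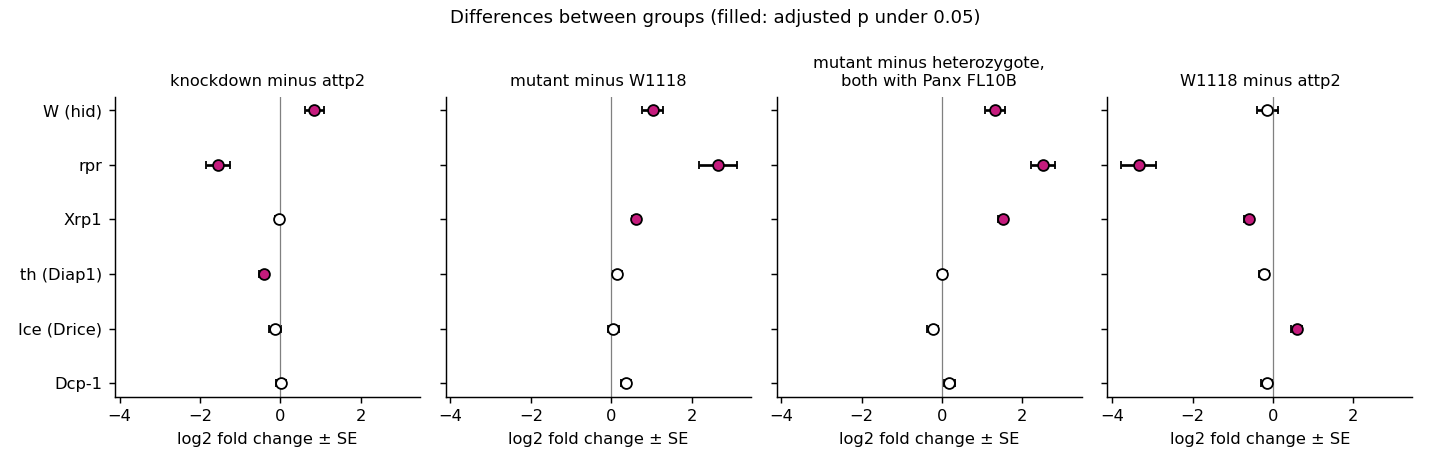
Log2 differences of the 6 tested members, with bars of 1 standard error from the edgeR fit and filled points for called genes, in 4 comparisons: knockdown against attp2, mutant against W1118, mutant against heterozygote with Panx FL10B, and W1118 against attp2. In the mutant with Panx FL10B against the heterozygote, hid, rpr and Xrp1 lie at 1.33, 2.52 and 1.51 while Diap1 lies at 0.01, and in the knockdown against attp2 rpr lies at -1.56.

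Xrp1, the stress-induced transcription factor gene, had 362 and 376 CPM in mutant ovaries with Panx FL10B, against 139.6 and 120.3 CPM in heterozygous ovaries with Panx FL10B. Mutant ovaries had 114 and 116 CPM, against 72.8 and 76.3 CPM in W1118 ovaries. Knockdown ovaries had 101 and 120.1 CPM, against 116 and 111 CPM in attp2 ovaries. The 2 libraries of the mutant with Panx FL10B stood far above the other 10, the 2 of W1118 were the lowest, and knockdown and attp2 overlapped.

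The log2 difference of Xrp1 was 1.51 (SE 0.11, adjusted p = 3.26e-07) between mutant and heterozygote with Panx FL10B, and 0.62 (SE 0.11, adjusted p = 0.00141) between mutant and W1118. Both calls were made whichever library was left out. Between knockdown and attp2 it was -0.04 (SE 0.10, adjusted p = 0.833). Xrp1 was also lower in W1118 than in attp2 ovaries, with a log2 difference of -0.61 (SE 0.11, adjusted p = 0.000355). Against W1118 the knockdown had a log2 difference of 0.57 (adjusted p = 0.000723), and against attp2 the mutant had one of 0.01 (adjusted p = 0.918).

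Between the wild-type stocks, W1118 over attp2, 3 of the 6 tested members were called, Drice higher and rpr and Xrp1 lower, in a comparison that called 55.5% of all tested genes, 25.2% higher and 30.3% lower. The log2 difference was -0.14 for hid, -0.21 for Diap1 and -0.15 for Dcp-1, none of them called. Without attp2 replicate 1, 5 members were called. The difference of rpr between the stocks was larger in size than each of its 3 differences with nxf2, and that of Xrp1 was close in size to its difference between mutant and W1118.

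Groups with and without Panx FL10B also differed. In the mutant with Panx FL10B against the mutant without it, rpr was higher by 2.01 on the log2 scale (adjusted p = 6.69e-05), Xrp1 by 1.68 (adjusted p = 3.41e-08), and Drice fell by 0.49 (adjusted p = 0.0137), a pair in which 38.3% of all tested genes were called, 18.4% higher and 19.9% lower. Diap1 was also called lower there with the compared groups alone (log2 difference -0.30, adjusted p = 0.00547) and with no filter (adjusted p = 0.0381). The Drice call was lost without replicate 1 of the mutant with Panx FL10B (adjusted p = 0.128) and without mutant replicate 2 (adjusted p = 0.0554). In the heterozygote with Panx FL10B against W1118, rpr was higher by 2.15 (SE 0.51, adjusted p = 0.00598) and Xrp1 by 0.80 (adjusted p = 0.000116), beside 32% of all tested genes called, 16.8% higher. That rpr value rests on 32 and 6 counts, and without W1118 replicate 2 it was 1.35 with an adjusted p of 0.156. Heterozygosity for nxf2, Panx FL10B and the stock background cannot be told apart in that last pair. In the pair of mutants, Panx FL10B and any difference of stock cannot be told apart either. There the RNA of 9 chorion genes of late egg chambers summed to 494 and 330.2 CPM with Panx FL10B and 9305 and 13146 CPM without it. The part of these egg chambers in the differences was not tested. The submitters' processing notes name a counting program only for the 8 libraries without Panx FL10B.

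The size of an effect was compared between settings within the same model. The mutant minus W1118 difference exceeded the knockdown minus attp2 difference by 4.22 on the log2 scale for rpr (SE 0.56, adjusted p = 0.000323). The excess was 0.66 for Xrp1 (SE 0.15, adjusted p = 0.00671) and 0.56 for Diap1 (SE 0.17, adjusted p = 0.0253), in a test that called 27% of all tested genes, 14.5% upward. The Diap1 call was lost in 6 of the 8 fits that left out 1 library, all but those without attp2 replicate 1 or knockdown replicate 2, with adjusted p-values of 0.0534 to 0.119, and with the compared groups alone (adjusted p = 0.0622). Dcp-1 was called in this test without attp2 replicate 1 (log2 value 0.57, adjusted p = 0.00318). For hid the 2 effects differed by 0.19 (SE 0.35, adjusted p = 0.731), which does not show that they were equal. Depletion by knockdown or mutation and the wild-type stock change together here and cannot be told apart. For Xrp1, the difference between mutant and heterozygote with Panx FL10B exceeded that between mutant and W1118 by 0.89 (SE 0.15, adjusted p = 0.00116), in a test that called 21.2% of all tested genes, 9.26% upward. No other member passed this test, with log2 values of 0.29 (SE 0.36) for hid and -0.14 (SE 0.54) for rpr. Panx FL10B, the genotype of the control (nxf2 +/- or wild type) and the stock change together in it and cannot be told apart.

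Counts of the antagonists per 100 Diap1 counts in the same library need no scaling between libraries. For hid there were 29.1 and 32.9 in mutant ovaries with Panx FL10B, against 12.9 and 11.9 in heterozygous ovaries with Panx FL10B. Mutant ovaries had 21.8 and 12.9 hid counts per 100 of Diap1, against 7.38 and 11.1 in W1118 ovaries. Knockdown ovaries had 29.4 and 15.1, against 10.2 and 7.81 in attp2 ovaries. Hid was higher relative to its inhibitor in each of these pairs without overlap, by the least margin between the lower mutant and the higher W1118 library.

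For rpr there were 8.83 and 10.5 counts per 100 of Diap1 in mutant ovaries with Panx FL10B, against 1.61 and 1.74 in heterozygous ovaries with Panx FL10B. Mutant ovaries had 2.18 and 1.66, against 0.557 and 0.181 in W1118 ovaries, and knockdown ovaries had 1.36 and 1.31, against 3.66 and 2.34 in attp2 ovaries. For Xrp1 there were 221 and 247 counts per 100 of Diap1 in mutant ovaries with Panx FL10B, against 91.3 and 75.0 in heterozygous ovaries with Panx FL10B. Mutant ovaries had 58.4 and 59.3, against 39.4 and 45.1 in W1118 ovaries. Knockdown ovaries had 74.6 and 70.0, against 61.8 and 50.0 in attp2 ovaries, so Xrp1 lay above attp2 on this scale, which Diap1 also moves, and not in CPM.

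**Figure D3:**
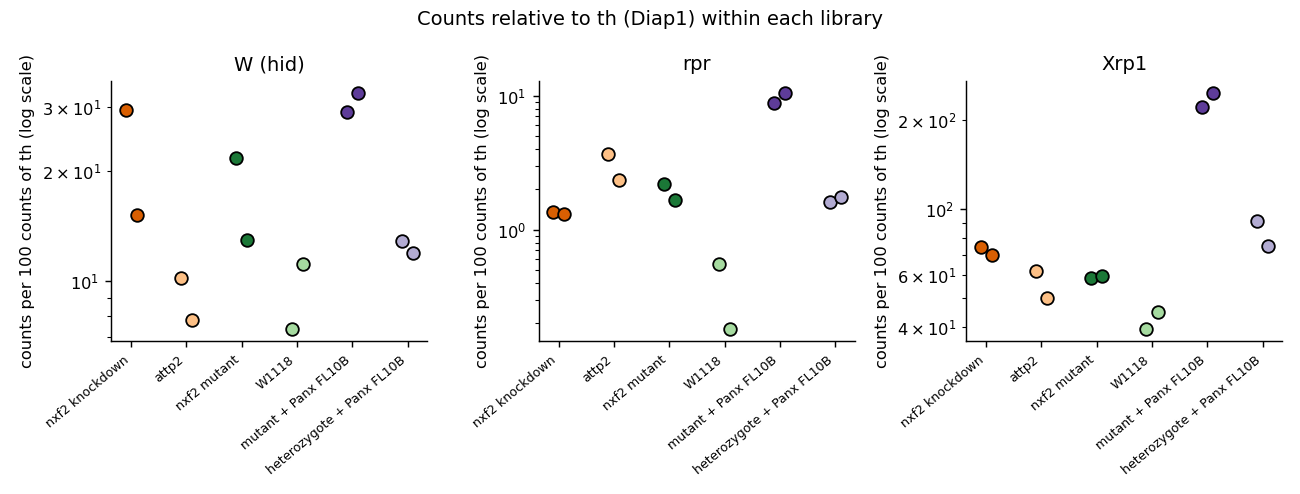
Counts of hid, rpr and Xrp1 per 100 counts of Diap1 (th) in the same library, on log axes, 1 point per library in each of the 6 groups. In the mutant with Panx FL10B the points lie at 29.1 and 32.9 for hid and at 8.83 and 10.5 for rpr, and for rpr the attp2 points, at 3.66 and 2.34, lie above those of the knockdown.

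Levels of different genes were compared per kilobase of exon. In mutant ovaries with Panx FL10B the mean level was 110.4 CPM per kilobase for Dcp-1, 76.4 for Xrp1, 50.2 for Diap1, 16.9 for rpr, 15.4 for Drice and 12.1 for hid. In W1118 ovaries it was 79.4 for Dcp-1, 56.3 for Diap1, 20.9 for Drice, 15.4 for Xrp1, 4.04 for hid and 0.741 for rpr. Xrp1 thus lay above Diap1 in the first group and below it in the second, and rpr above Drice in the first and below it in the second. On this scale rpr also lay above hid in the first group and in attp2 ovaries (6.71 against 4.54), and below it in the other groups.

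The wider pathway was read from 10 lists that hold 91 other genes, of which 83 were tested. In the mutant with Panx FL10B against the heterozygote, 13 of them were higher and 9 lower, 26.5% of those tested, beside 19.5% of all genes. In the nxf2 mutant against W1118, 11 were higher and 14 lower, 30.1% beside 26.8%. In the knockdown against attp2, 7 were higher and 10 lower, 20.5% beside 15.7%. Their median log2 differences were 0.06, -0.02 and 0.01. The shares of all genes, 19.5%, 26.8% and 15.7%, are also the background for the calls of each list and marker set below. Fits that left out a library called other shares of all genes, so list counts from those fits have another background. Bruce in the knockdown, Mmp1, kay and puc in the mutant, and upd3, drpr, p53, CG6272 and debcl were chosen for naming after their values were seen.

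Of the other inhibitors of apoptosis (3) and the other tested genes of the caspase list (4), none was called in the mutant with Panx FL10B against the heterozygote. Against W1118, Bruce, a giant ubiquitin ligase of the inhibitor family, fell by 0.59 on the log2 scale in the mutant, with 430 ± 23.3 CPM against 647 ± 18.9 CPM in W1118 (adjusted p = 0.00322), and no caspase gene was called. With attp2 as the control the Bruce value was -0.13 with an adjusted p of 0.356. In the knockdown against attp2, Bruce was higher by 0.41, with 625 ± 80.3 CPM against 471 ± 78.0 CPM in attp2 (adjusted p = 0.0346). The mean of the knockdown did not exceed the 647 ± 18.9 CPM of W1118, and the call did not hold in every fit that left out a library. The initiator caspase Dronc (Nc) fell by 0.47 in the knockdown, with 60.8 ± 2.86 CPM against 84.1 ± 6.33 CPM in attp2 (adjusted p = 0.00918), and missed the threshold without knockdown replicate 1 (adjusted p = 0.0606). Deterin (Det) fell by 0.65 in the knockdown, and missed it without knockdown replicate 1 (adjusted p = 0.129) and without attp2 replicate 2 (adjusted p = 0.0543).

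Signalling through the TNF homologue Eiger and the kinase JNK induces hid and rpr in several fly tissues. Of 14 tested genes of this list, 3 were higher and 1 lower in the mutant with Panx FL10B against the heterozygote. The JNK phosphatase gene puckered (puc), a feedback target that serves as a reporter of JNK activity, had 175 ± 3.81 CPM in the mutant against 86.3 ± 6.68 CPM in the heterozygote, a log2 difference of 1.02 (adjusted p = 5.6e-05). The relaxin-like peptide gene Ilp8, which is induced by JNK in damaged imaginal discs and is also expressed by mature follicle cells, had 1.36 ± 0.910 CPM against 38.4 ± 1.28 CPM, a log2 difference of -4.76 (adjusted p = 4.03e-07). Whichever library was left out, 2 genes of the list were called in place of 4.

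The JNK list split in the mutant against W1118, with 3 higher and 4 lower. The kinase gene Tak1 fell by 0.57, which missed the threshold with attp2 as the control (adjusted p = 0.0661), while the target genes Mmp1, kay and puc were higher by 0.99, 0.50 and 0.35. None of these target genes was called without mutant replicate 1, and their values with attp2 as the control are not given here. The kinase gene hep fell by 0.45, missed the threshold without W1118 replicate 2 (adjusted p = 0.100) and without mutant replicate 1 (adjusted p = 0.0621), and stood at 0.098 with attp2 as the control. In the knockdown against attp2, 2 were higher and 1 lower. Ilp8 was the lower gene, with a log2 difference of -2.24 (adjusted p = 1.12e-05), and averaged 38.9 ± 4.79 CPM in the knockdown and 184 ± 45.8 CPM in attp2. With W1118 as the control the log2 difference of Ilp8 was -0.05 with an adjusted p of 0.871. Leaving out 1 library, the number of genes called in this list ran from 1 (without mutant replicate 1) and 2 (without either W1118 library) to 9 (without mutant replicate 2) in the mutant, where 7 were called, and from 1 (without knockdown replicate 1) to 5 (without attp2 replicate 1) in the knockdown, where 3 were called.

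Of 11 tested genes of the p53 and irradiation response besides Xrp1, none was called higher in these 3 comparisons in the fit of all libraries. With Panx FL10B, 2 were lower in the mutant, among them the ribonucleotide reductase gene RnrL, which fell by 0.74, with 174 ± 9.97 CPM against 289.7 ± 9.88 CPM in the heterozygote (adjusted p = 0.000633). In the mutant against W1118, 3 were lower, among them the checkpoint kinase gene tefu, the fly ATM, with a log2 difference of -0.62 (adjusted p = 0.000682). With attp2 as the control that of tefu was -0.21 with an adjusted p of 0.0752. In the knockdown against attp2, 2 were lower, and the call of the first of them, Corp, was lost without attp2 replicate 2 (log2 difference -0.37, adjusted p = 0.125) and without either knockdown library (adjusted p = 0.112 and 0.0562). The p53 gene itself had log2 differences of 0.37 with Panx FL10B, -0.02 in the mutant and 0.16 in the knockdown, none of them called. When a library was left out, the number called in the list was 2 without heterozygote replicate 2 and 1 without any other of the 4 libraries with Panx FL10B. It ran from 1 (without W1118 replicate 1) to 5 (without mutant replicate 2) in the mutant, and in the knockdown it was 4 without attp2 replicate 1 and 0 without any other of the 4 libraries.

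The list of Xrp1 partners and of the integrated stress response held 13 tested genes. With Panx FL10B, 3 were higher in the mutant and none lower. The gene scyl, a stress-induced inhibitor of TOR signalling, was higher by 0.72, with 690.1 ± 5.66 CPM against 419 ± 11.5 CPM in the heterozygote (adjusted p = 0.000412). Its paralogue chrb was higher by 0.40, a call lost whichever of the 4 libraries was left out. The cytokine gene upd3 was higher by 1.56, with 3.00 ± 0.372 CPM against 1.05 ± 0.654 CPM in the heterozygote, where 3 counts stand for 0.442 to 0.568 CPM. The upd3 call was lost without mutant replicate 1, mutant replicate 2 or heterozygote replicate 2. CG6272, which encodes the dimer partner Irbp18 of Xrp1, had a log2 difference of 0.22 and was not called. Without mutant replicate 1, mutant replicate 2 or heterozygote replicate 2, 1 gene of the list was called in place of 3.

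In the mutant against W1118, 4 genes of that list were higher and 2 lower. The glutathione transferase gene GstD1 had 360 ± 55.1 CPM in the mutant against 30.6 ± 2.18 CPM in W1118, a log2 difference of 3.54 (adjusted p = 1.1e-09). With attp2 as the control the log2 difference of GstD1 was -0.31, since attp2 ovaries had 446 ± 39.2 CPM. In the knockdown against attp2 none was higher and 2 were lower. The 6 calls in the mutant became 1 without W1118 replicate 1, 2 without W1118 replicate 2 or mutant replicate 1, and 4 without mutant replicate 2, and the 2 in the knockdown became 0 without knockdown replicate 1.

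Of 9 tested genes for engulfment and DNA fragmentation, 4 were higher and 1 lower in the mutant with Panx FL10B against the heterozygote. The GTPase gene Rac2, which acts in engulfment, had 141 ± 5.04 CPM in the mutant and 71.5 ± 0.740 CPM in the heterozygote, a log2 difference of 0.98 (adjusted p = 2.56e-05). Rac1 was higher by 0.46, and missed the threshold without heterozygote replicate 2 (adjusted p = 0.0528) or mutant replicate 2 (adjusted p = 0.0568), and the engulfment receptor gene draper (drpr) was higher by 0.35. The 5 calls became 3 without heterozygote replicate 1, 2 without mutant replicate 1, and 1 without replicate 2 of either group. In the mutant against W1118, 1 was higher and 2 lower, with the DNA fragmentation genes Drep-1 and Drep-4 at -0.57 and -0.73. In the knockdown against attp2, Drep-1 was higher by 0.79 and Rac2 lower, and without knockdown replicate 1 only 1 call was made. Drep-1 took the other direction in both comparisons with the other wild-type stock as the control, at -0.78 in the knockdown and 1.00 in the mutant.

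Of 16 autophagy genes, 1 was higher and 2 lower in the mutant with Panx FL10B against the heterozygote, none higher and 1 lower in the mutant against W1118, and 3 higher and 1 lower in the knockdown against attp2. Leaving out 1 library, the 3 calls with Panx FL10B became 0 or 1, the 1 in the mutant became 0 in each case, and the 4 in the knockdown ran from 0 (without knockdown replicate 1), 1 (without attp2 replicate 2) and 2 (without knockdown replicate 2) to 8 (without attp2 replicate 1). Of 12 genes for the emptying and death of nurse cells, 2 were higher and 3 lower with Panx FL10B. The lysosomal regulator gene Mitf was higher by 0.68, with 296 ± 2.51 CPM against 184 ± 1.12 CPM in the heterozygote (adjusted p = 0.000383), and crinkled (ck), a myosin gene, fell by 0.61. In the mutant against W1118, 3 were higher and 1 lower, with the cathepsin L gene Cp1 at 0.65 and ck at -0.52. With attp2 as the control the ck value was -0.11 with an adjusted p of 0.326. In the knockdown 1 was lower and none higher. Of these nurse cell genes, 3 to 4 were called with Panx FL10B, 2 to 4 in the mutant and 0 to 2 in the knockdown when a library was left out, with 3 without replicate 1 of either group with Panx FL10B, 2 without replicate 1 of the mutant or of W1118, and, in the knockdown, 0 without knockdown replicate 1 and 2 without either attp2 library. The 1 tested gene of the Bcl-2 family, debcl, was not called in any of the 3, with log2 differences of 0.06 with Panx FL10B, 0.05 in the mutant and 0.20 in the knockdown.

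**Figure D4:**
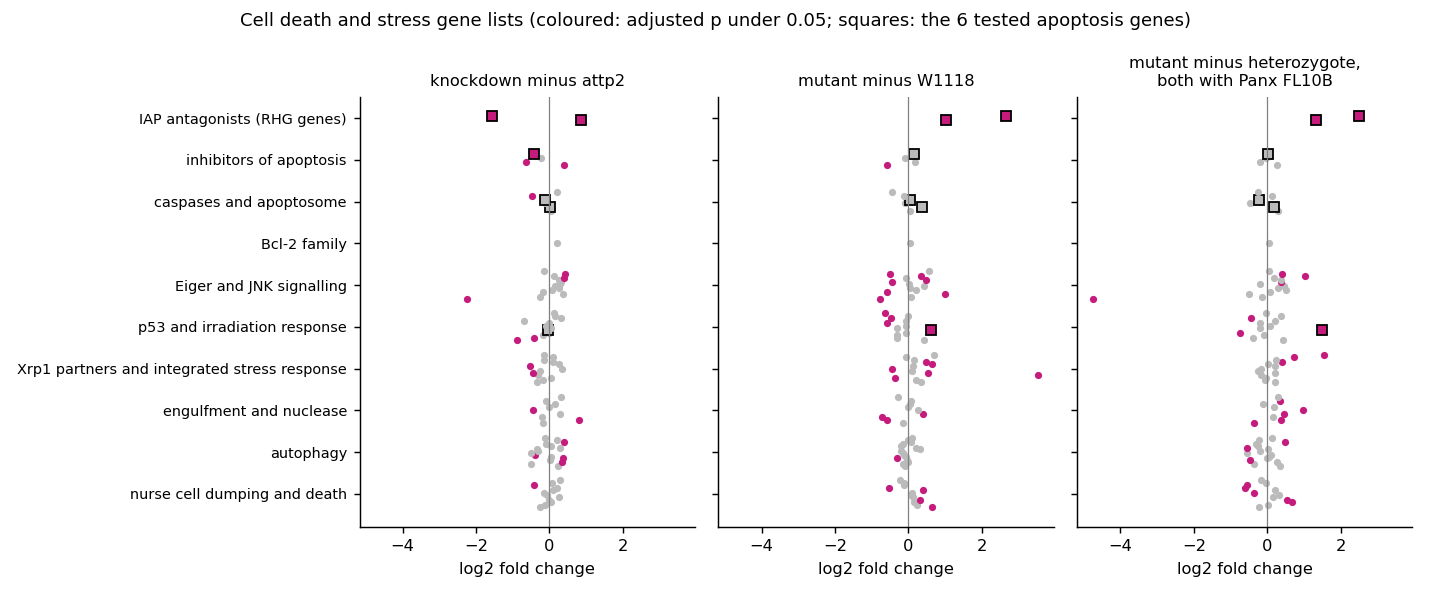
Log2 differences of the tested genes of 10 pathway lists, 1 point per gene, in the knockdown against attp2, the mutant against W1118 and the mutant against the heterozygote with Panx FL10B. Called genes are coloured and squares mark the 6 tested members. In the JNK list with Panx FL10B, Ilp8 lies at -4.76 and puc at 1.02.

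Markers of cell types were read beside these results. The 9 chorion genes, made by follicle cells of the last egg chamber stages, summed to 494 and 330.2 CPM in mutant ovaries with Panx FL10B, against 17130 and 17494 CPM in heterozygous ovaries with Panx FL10B, and all 9 were called lower. The 6 vitelline membrane genes of earlier follicle cells summed to 1979 and 2111 CPM, against 4623 and 4583 CPM, and all 6 were called lower. Ovaries of that mutant thus had the highest hid, rpr and Xrp1 and the lowest chorion sum of the 6 groups, and the part of late egg chambers in the result was not tested. With all 15 of these genes left out of the totals and the scaling, which was chosen after seeing the data, no call of a member changed.

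In the other pairs the chorion sum was 29241 and 32748 CPM in knockdown ovaries, against 21855 and 22212 CPM in attp2 ovaries, and 9305 and 13146 CPM in mutant ovaries, against 7181 and 6880 CPM in W1118 ovaries. The vitelline membrane sum was 15370 and 13133 CPM in the knockdown, against 5377 and 5238 CPM in attp2, with all 6 genes called higher, and 5006 and 6090 CPM in the mutant, against 6959 and 6327 CPM in W1118.

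**Figure D5:**
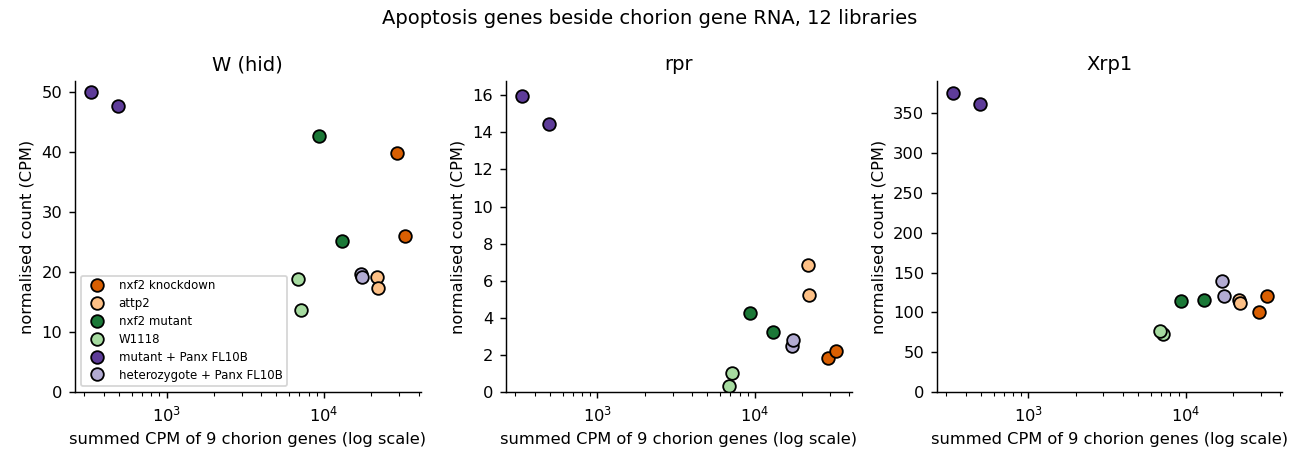
Summed CPM of 9 chorion genes on a log axis against the CPM of hid, rpr and Xrp1 on linear axes from 0, 1 point per library, coloured by group. The 2 libraries of the mutant with Panx FL10B lie apart at chorion sums of 494 and 330.2 CPM, and the other 10 lie between 6880 and 32748 CPM.

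Germline markers, 8 genes, summed to 4416 and 4426 CPM in mutant ovaries with Panx FL10B, against 3487 and 3319 CPM in heterozygous ovaries with Panx FL10B, with 3 called higher and 1 lower. Muscle markers, 8 genes, summed to 471 and 488 CPM, against 247 and 246 CPM, with 4 called higher. In mutant ovaries the muscle sum was 563 CPM in replicate 1 and 309.8 CPM in replicate 2, against 395 and 411 CPM in W1118 ovaries. Replicate 1 is also the mutant library with more hid, 42.6 CPM, and the part of the surrounding tissue in that value was not tested. Hemocyte markers summed to 727 and 599 CPM in the mutant, against 448 and 441 CPM in W1118, and fat body markers to 249 and 107 CPM, against 73.1 and 76.0 CPM. With Panx FL10B, the hemocyte sum was 704 and 693 CPM in the mutant, against 613 and 573 CPM in the heterozygote. The fat body sum was lower there, at 50.6 and 47.4 CPM, against 76.4 and 71.8 CPM. In the knockdown the hemocyte sum was 546 and 584 CPM, against 598 and 519 CPM in attp2. The fat body sum was again lower, at 15.3 and 45.2 CPM, against 99.3 and 87.7 CPM. Midgut markers stayed at or under 4.73 CPM in all 12 libraries.

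The genes whose log2 CPM followed each antagonist and Xrp1 best over the 12 libraries were sought among 7215 tested genes with a mean of at least 5 CPM. These Pearson correlations are a description, since the libraries fall into 6 groups, share the scaling, and the mutant with Panx FL10B weighs heavily. Closest to hid were sick (r = 0.92, and 0.85 over the 10 libraries without the mutant with Panx FL10B), Jheh3 (0.88), CG14441 (0.87), rgn (0.87) and lbk (0.85). Closest to rpr were Nmdmc, CG5589 and CG13364 (each 0.90) and CG17224 and ckn (each 0.89). Closest to Xrp1 were Rrp45, RpI135 and CG15784 (each 0.96), aub and eIF3-S9 (each 0.94), with aub at 0.61 without the mutant with Panx FL10B.

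Among the members, Xrp1 and rpr followed each other most closely, with r = 0.85 over 12 libraries and 0.73 over the 10 without the mutant with Panx FL10B. Among 7215 genes ordered by their correlation with rpr, Xrp1 had rank 17. Hid and Xrp1 had r = 0.71, and 0.31 without those 2 libraries, and hid and rpr had r = 0.59, and 0.20 without them. Dcp-1 had r = 0.61 with hid and with rpr and 0.68 with Xrp1, and without those libraries 0.40, 0.37 and 0.57. Drice and Diap1 had values of -0.25 and -0.41 with hid.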

How the data were processed

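Raw counts per gene, not normalised by the authors, were deposited for 12 ovary libraries in 1 table with no column left unused. Per the labels' protocols, total RNA was extracted with Trizol and primed with not-so-random primers. The submitters' processing notes list, for all libraries, cutadapt 1.16, STAR 2.5.2a, bcl2fastq 1.8.4 and the build dm3, and for the 8 without Panx FL10B also featureCounts 1.6.1 and deepTools 2.5.7. No source used here names the annotation, the use of strand or the counter of the other 4.

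From the counts, edgeR 4.0.16 (R 4.3.3, limma 3.58.1) kept 8638 of 15446 genes by filterByExpr, scaled by TMM, and fitted 1 robust quasi-likelihood model of 6 groups, with no replicate block and 6 residual degrees of freedom. The biological coefficient of variation was 0.102. The threshold was a Benjamini-Hochberg adjusted p of 0.05 over all tested genes. CPM use the TMM factors, and a standard error is the log2 difference divided by the root of its F statistic. The code was checked on simulated counts.

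The members, lists and tests were chosen with earlier results of these data known. Beside the 7 members and nxf2, the 2 called genes with the smallest p of each of 10 lists in 3 comparisons were eligible for naming, and the 5 genes most correlated (log2 CPM with a prior of 2) with hid, rpr and Xrp1. Alternatives were other scalings and filters, DESeq2 1.42.0, a replicate block, a fit of the compared groups alone, the other wild-type stock as the control, and each library left out in turn. Panx mutant libraries with tethered dNxf2 were not analysed here. Exon lengths and gene order come from Ensembl and RefSeq annotations of a later assembly than dm3, so no coordinate is given. Intervals cover counting error only.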

Additional observations from a re-analysis of the deposited data

Results flagged for a closer look

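For 3 members, the mutant minus W1118 difference exceeded the knockdown minus attp2 difference, by a test of the difference itself in edgeR. The excess was 4.22 on the log2 scale for rpr (adjusted p = 0.000323), 0.56 for Diap1 (adjusted p = 0.0253) and 0.66 for Xrp1 (adjusted p = 0.00671). The adjusted p over the fits that left out 1 library ran from 0.000137 to 0.00634 for rpr, from 0.00315 to 0.119 for Diap1 and from 0.00294 to 0.0369 for Xrp1. Diap1 missed the threshold in 6 of these 8 fits, without attp2 replicate 2, knockdown replicate 1 or any library of the mutant or W1118, and with the compared groups alone (adjusted p = 0.0622). The kind of depletion and the wild-type stock change together in this comparison and cannot be told apart. Knockdown minus mutant was itself -0.88 for rpr, -0.35 for Diap1 and -0.05 for Xrp1, and W1118 minus attp2 was -3.34, -0.21 and -0.61. For Xrp1, the difference between mutant and heterozygote with Panx FL10B was above that between mutant and W1118 by 0.89 (adjusted p = 0.00116). Panx FL10B, a heterozygous or wild-type control and the stock cannot be told apart in that test, and the chorion sums that stand beside it were 494 and 330.2 CPM in the mutant and 17130 and 17494 CPM in the heterozygote. Their part in the result was not tested.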

How the results depend on the processing

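The calls of hid, rpr and Xrp1 between mutant and heterozygote with Panx FL10B were made under every alternative run. The number of members called changed most in the knockdown: it was 3 in the fit of all libraries, 0 with the 4 compared libraries alone and 1 to 3 when a library was left out, with 1 without attp2 replicate 2 and 1 without knockdown replicate 1. Between the heterozygote with Panx FL10B and W1118 it was 2, against 4 with the compared groups alone, which called 4414 of 7883 genes in place of 2761 of 8638, and 1 to 2 when a library was left out. Between W1118 and attp2 it was 3, and 3 to 5 when a library was left out. With no filter on low counts, 2 members were called in the knockdown, since hid had an adjusted p of 0.0557.

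The other stock as the control turned the direction in the knockdown (W1118 as control) for rpr at 1.78, Xrp1 at 0.57, Det at 0.16, msn at -0.46 and Drep-1 at -0.78, and in the mutant (attp2 as control) for rpr at -0.68, hep at 0.098, GstD1 at -0.31 and Drep-1 at 1.00. Over 114 alternatives per member, the value kept its side of the threshold, with no called value changing direction, in 106 for hid, 109 for rpr, 99 for Diap1, 110 for Drice, 107 for Dcp-1 and 112 for Xrp1. Among these were 17 uncalled values that changed sign (4 for hid, 2 for rpr, 4 for Diap1, 6 for Dcp-1 and 1 for Xrp1), between -0.25 and 0.66. For the 35 pairs of a pathway gene and a comparison eligible for naming by smallest p, 73 values lost their call, 400 kept it and 6 changed direction. The genes named after their values were seen are in neither this tally nor the directions above.

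Same-numbered libraries shared only a number: their deviations correlated at -0.148 to 0.0772. Dcp-1 passed the threshold in the mutant against W1118 with the replicate block (log2 difference 0.38, adjusted p = 0.0493), with no filter (adjusted p = 0.0403) and with the compared groups alone (adjusted p = 0.00563), which made 4 members called there in place of 3. The compared groups alone also made 4 with Panx FL10B, where Dcp-1 had an adjusted p of 0.00462. The count of genes called depends on the shared spread: in the knockdown it was 1356, 188 with the 4 compared libraries alone and 546 to 2464 when 1 was left out; with Panx FL10B it was 1686, 3690 and 721 to 802; in the mutant it was 2318, 3033 and 821 to 1707. The shares of all genes given beside the members' calls move with these totals. For rpr, counts of 4 and 2 in W1118 limit the precision.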
